A study of Mus musculus with 6 samples.

Results

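The genes described here encode carriers of sodium, phosphate, chloride, bicarbonate and sulfate. They are the protein-coding genes named Slc4a, Slc8a, Slc9a, Slc12a, Slc13a, Slc17a, Slc20a, Slc26a or Slc34a with a number, without Slc4a1, the anion exchanger that red blood cells share with intercalated cells. They were chosen by name, and 61 of the 25805 listed genes matched, out of 333 protein-coding Slc genes. Of the 61, 3 do not encode carriers: Slc9a3r1 and Slc9a3r2 encode scaffold proteins (NHERF1 and NHERF2) that hold carriers at the membrane, and Slc4a1ap encodes an adaptor protein named for its link to Slc4a1. RNA was sequenced from whole kidneys of mice after ischaemia-reperfusion injury (IRI), an interruption and return of renal blood flow that damages tubules. There were 3 libraries with the genotype WT and 3 with the genotype CXCR2 knockout, all labelled with the treatment IRI, so both groups share the injury and no kidney without it was compared. The sources used here give no strain, sex, age, time after injury or deleted part of Cxcr2. The labels do not tie the libraries to separate mice. A p-value here therefore covers only library-to-library spread, which may be technical.

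Kidney tubules recover most of the filtered salt. In the proximal tubule, sodium enters from the urine side with phosphate, sulfate or citrate, or in exchange for protons, and bicarbonate leaves toward the blood with sodium. The thick ascending limb and the distal convoluted tubule take up sodium with chloride through carriers that loop diuretics and thiazides block, and intercalated cells of the collecting duct exchange chloride for bicarbonate. Many of these genes mark the differentiated state of their segment, and their transcripts are known to drop when tubule cells are injured.

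The 6 libraries held 15518083 to 20356601 recovered reads, and values are normalized counts, that is reads divided by a size factor for each library. Cxcr2 transcript was not lower in the knockout: it stood at 15.9 to 88.8 normalized counts in wild type and 36.8 to 98.0 in the libraries labelled knockout. Since the values cover the whole gene, reads outside a deleted part would check nothing, and every direction below is one between libraries by their labels. Kidney identity was plain in all 6 libraries, with the proximal receptor gene Lrp2 at 5666 or more and the thick limb gene Umod at 15277 or more. The labelled-knockout libraries stood apart from one another. The 6 fat cell markers summed to 39234 normalized counts in labelled-knockout library 1. In libraries 2 and 3 the sums were 2156 and 343, against 928 to 2587 in wild type. Fabp4 made up 1366 of the 2156. In library 2, Ucp1 (48.4), Plin1 (265), Cidea (70.7) and Cidec (309) were above all wild-type values, and Fabp4 and Adipoq (96.8) were not. Injured tubule markers (Havcr1, Lcn2, Krt20, Vcam1 and Spp1) summed to 89982, 308536 and 625345 under the knockout label, against 314907 to 426623 in wild type. Their part in the results below was not tested.

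No transporter or scaffold gene passed the test between the groups at an adjusted p of 0.05. Of the 61 members, 58 averaged 1 normalized count or more and were tested with limma across 21721 genes, where 0.0046% of all genes were called. The members' adjusted p ran from 0.377 to 0.994. At an unadjusted p under 0.05 there were 4 members with higher values in labelled knockout (3.94% of all genes) and 3 with lower values (6.14% of all genes), 12.1% of the tested members against 10.1% of all genes in either direction. The 4 were Slc13a1, Slc4a9, Slc9a8 and Slc34a3, and the 3 were Slc9a5, Slc9a2 and Slc9a3r2. Groups did not overlap for 12 of the 58, 6 with all labelled-knockout libraries above wild type (8.27% of all genes) and 6 below (9.43% of all genes). That is 20.7% of tested members against 17.7% of all genes, so neither share stood far from the background. The median log2 fold change, coded as labelled knockout minus wild type, was 0.093 over the members and -0.0010 over all genes. Of the 58, 34 were higher and 24 lower, where 49.9% of all genes were higher. The quasi-likelihood test of edgeR on recovered reads called 0 of 50 members (0.00628% of all genes). The Wald test of DESeq2 called 3 of 50, a background of 1.95%: Slc4a9 and Slc34a3 rose (0.647% of all genes are called higher) and Slc9a5 fell (1.3% called lower). The standard error of a member's log2 fold change had a median of 0.35 and ran from 0.15 to 1.31, and 51 of the 58 intervals covered 0.

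**Figure D1:**
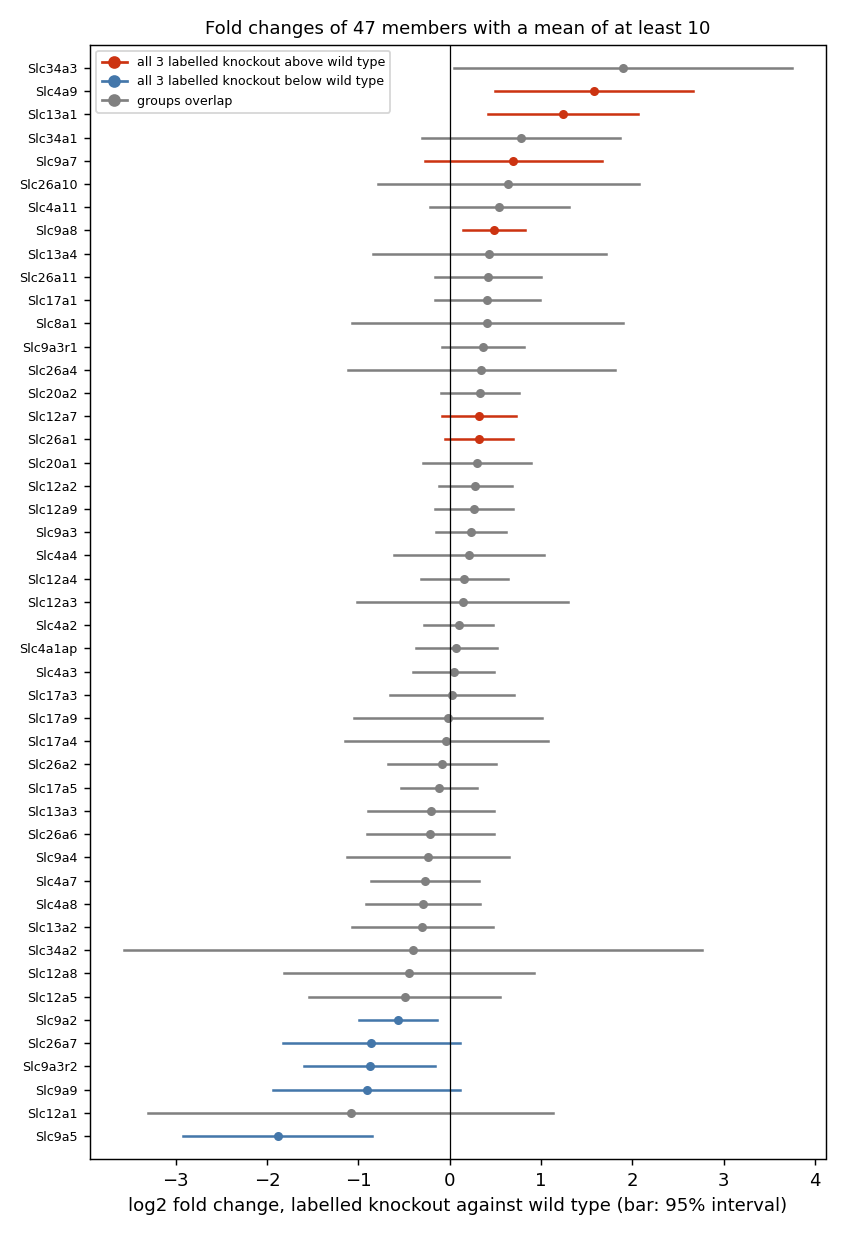
Log2 fold changes (x axis, labelled knockout against wild type, limma) of 47 members averaging 10 normalized counts or more, with 95% intervals as bars and colours for genes whose groups do not overlap. Slc34a3 (1.90), Slc4a9 (1.58) and Slc13a1 (1.24) are at the top and Slc9a5 (-1.88) at the bottom, and the interval of Slc34a2 runs from -3.57 to 2.76.

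Per kilobase of gene length, which allows genes to be compared, the members' wild-type means spanned 7089-fold between the highest and lowest tested. Slc34a1, the main sodium-phosphate carrier of the proximal brush border (NaPi-IIa), was highest at 5271 normalized counts per kilobase in wild type and 10091 in labelled knockout. The scaffold gene Slc9a3r1 followed in wild type (3280), then Slc17a1 (2298), the sodium-sulfate and dicarboxylate family member Slc13a3 (2084), the thiazide-sensitive carrier Slc12a3 (1045) and the loop-diuretic-sensitive carrier Slc12a1 (910). Of these neighbours, Slc9a3r1 and Slc17a1, Slc17a1 and Slc13a3, and Slc12a3 and Slc12a1 had overlapping wild-type values, and the rest did not. Slc34a1 alone made up 26.1%, 21.7% and 22.5% of the members' summed level per kilobase in the wild-type libraries, and 39.8%, 33.5% and 18.7% in the labelled-knockout libraries, each in the order of their numbers, as are all values below. In labelled-knockout library 3, Slc9a3r1 (19.8%) took the first place. The 3 members under the filter were Slc8a3, Slc17a7 and Slc26a3, each with at most 3 reads in any library.

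**Figure D2:**
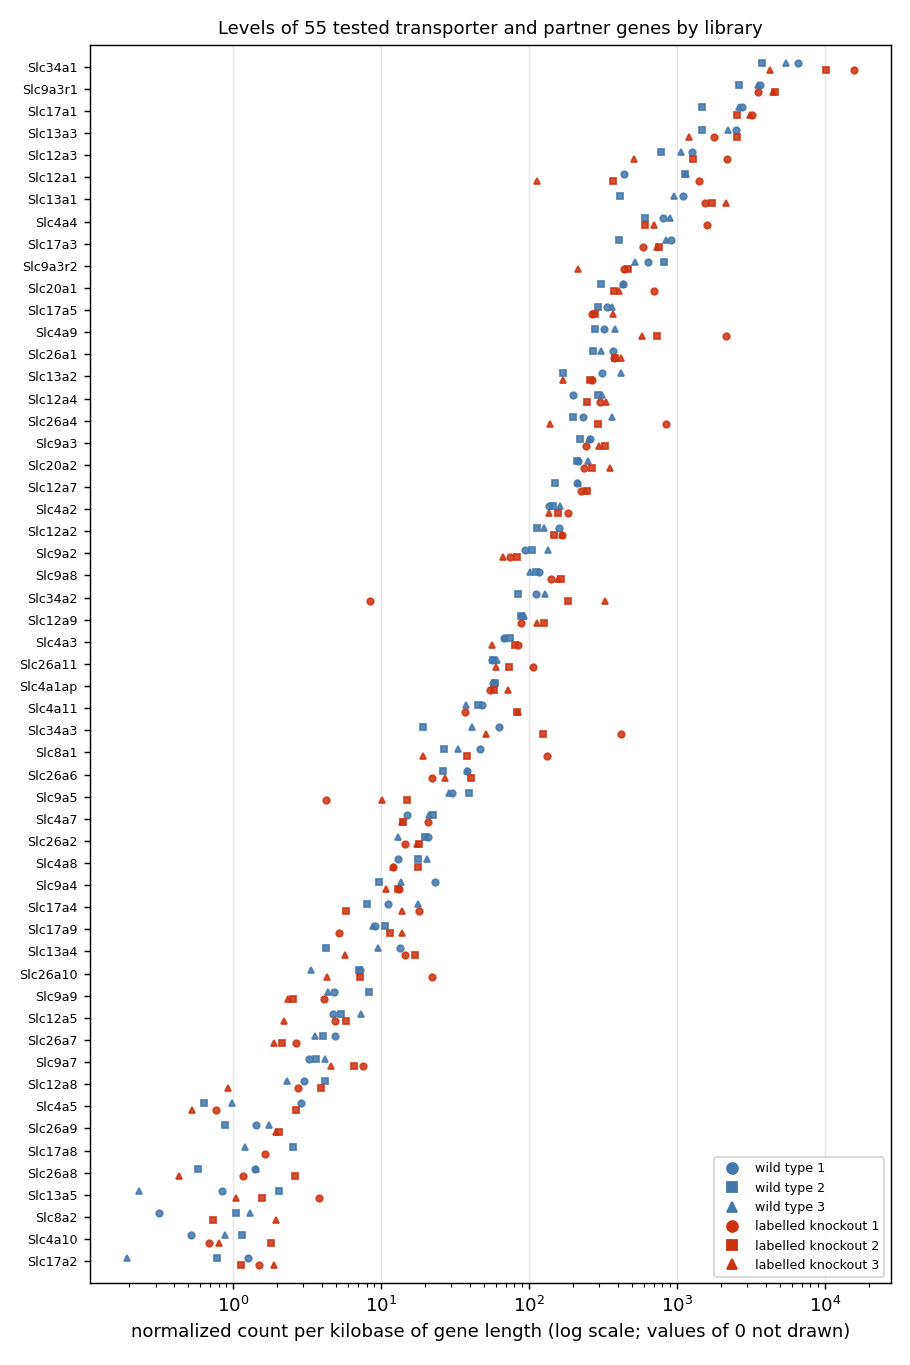
Normalized counts per kilobase (log axis) of 55 tested members in each of the 6 libraries, ordered by the wild-type mean from Slc34a1 (5271) at the top. Values of 0 are not drawn. Of the 58 tested members, 26 changed at least 2-fold between labelled-knockout libraries (45.9% of all genes). Between wild-type libraries, 15 did (30.5% of all genes). Slc34a2, Slc34a3, Slc4a9, Slc26a4 and Slc12a1 are among those that spread widely among the labelled-knockout libraries.

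The sodium-phosphate carriers of the SLC34 family varied widely within the labelled-knockout group. Slc34a1 (ENSMUSG00000021490, chromosome 13 from 55398187 to 55415592 in mm10) stood at 30718, 17630.1 and 25597 normalized counts in wild type. Under the knockout label it stood at 73893, 47788 and 19871. Libraries 1 and 2 lay above all wild-type values and library 3 lay within their range. The log2 fold change of 0.78 (SE 0.47, 95% interval -0.31 to 1.87, limma adjusted p = 0.599) did not exceed the spread between libraries, with 0.36 when labelled-knockout library 1 was left out and 1.31 when library 3 was. Pfn3, a gene on the opposite strand, covers 11.7% of the exon bases of Slc34a1, and the use of strand in counting is not given.

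Slc34a3 encodes NaPi-IIc, the second renal member of the family, which moves phosphate without net charge. Wild-type libraries held 148, 45.3 and 97.8 normalized counts of it and labelled-knockout libraries 983, 294 and 120 (chromosome 2 from 25228898 to 25234364). Library 1 was far above wild type, library 2 was above it, and library 3 lay between wild-type values. The means were 97.0 ± 51.3 and 466 ± 456 (SD, n = 3), or 1.90 on the log2 scale by limma (SE 0.78, adjusted p = 0.486, DESeq2 adjusted p = 0.0321). Without labelled-knockout library 1 the limma value was 1.11, and the DESeq2 call was lost (adjusted p = 0.276), as it was when wild-type library 1, 2 or 3 was left out (0.0555, 0.563 and 0.139).

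Slc34a2 encodes NaPi-IIb, known from lung and intestine rather than from healthy proximal tubule. It spread 38.7-fold within labelled knockout, at 42.3, 928 and 1638, where wild type held 559, 424 and 642 (chromosome 5 from 53038081 to 53071664). Library 1 was far below wild type and libraries 2 and 3 above it. The log2 fold change of -0.40 (standard error 1.31, limma adjusted p = 0.937) turned to 1.21 without library 1, and to 0.68 with DESeq2 (adjusted p = 0.874) and 0.69 with edgeR. Havcr1, the kidney injury molecule KIM-1, had the same order of the labelled-knockout libraries, at 1321, 22632 and 54545. Of the other injured tubule markers, Lcn2 and Spp1 had this order too. Krt20 (2885, 1835 and 3636) and Vcam1 (461, 287 and 1897) did not. A link of these markers to Slc34a2 was not tested. Within a library, the level of Slc34a1 per kilobase was 58.9, 44.6 and 42.8 times that of Slc34a2 in wild type and 1872, 55.2 and 13 times in labelled knockout, so that the groups overlapped. Such a ratio does not depend on the size factor. The ratio of Slc34a1 to Slc34a3 was 105, 196 and 132 in wild type and lower in all 3 labelled-knockout libraries (37.9, 81.9 and 83.2).

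Slc34a1 and Slc34a3 had the same order of libraries within each group, and Slc34a2 did not. To set the related genes side by side, the 250 bases before their RefSeq starts are shown (build GRCm38.p6, read 5′ to 3′ on the gene's strand). They are in lower case throughout, and no motif is marked.
Slc34a1, chr13:55399398-55399647, plus strand: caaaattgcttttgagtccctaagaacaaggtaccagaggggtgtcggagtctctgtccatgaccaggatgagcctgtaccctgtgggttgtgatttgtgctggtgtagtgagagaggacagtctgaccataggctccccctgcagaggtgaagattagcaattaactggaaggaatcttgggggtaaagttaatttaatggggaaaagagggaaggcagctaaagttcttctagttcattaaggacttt
Slc34a2, chr5:53049103-53049352, plus strand: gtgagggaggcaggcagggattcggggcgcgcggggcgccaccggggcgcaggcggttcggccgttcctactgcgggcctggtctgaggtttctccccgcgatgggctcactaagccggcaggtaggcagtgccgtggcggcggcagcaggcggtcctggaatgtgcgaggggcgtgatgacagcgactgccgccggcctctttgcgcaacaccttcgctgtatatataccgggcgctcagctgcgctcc
Slc34a3, chr2:25234235-25234484, minus strand: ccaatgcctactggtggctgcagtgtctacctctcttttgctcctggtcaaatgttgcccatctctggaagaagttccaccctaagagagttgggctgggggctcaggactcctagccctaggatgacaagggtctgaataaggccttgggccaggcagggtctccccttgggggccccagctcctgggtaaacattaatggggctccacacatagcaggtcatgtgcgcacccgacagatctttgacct
Of the motifs reported here, the HNF4 core CAAAGT (in 12.6% of 32851 such windows), the AP-1 site TGANTCA (6.75%) and the TATA box TATAAA (12.4%), searched on both strands, are in none of the 3. This says only that these letters are not in these windows. Of each motif, the TATA box included, only the spelling given was searched, so other forms may be there. All 3 RefSeq starts lie inside the genes as bounded in the annotation of the files' build.

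Within labelled knockout, the housekeeping phosphate carriers of the SLC20 family were steadier, and so were most SLC17 genes. From highest to lowest library, the SLC17 genes spanned a median of 0.66 on the log2 scale there (0.90 over all genes). Among wild-type libraries that median was 1.12 (0.57 over all genes). Slc20a1 (PiT-1) stood at 2435, 1727 and 2407 in wild type and 3916, 2097 and 2273 in labelled knockout, so only library 1 lay outside the wild-type range. Slc20a2 (PiT-2), which also serves the proximal brush border, stood at 1344, 1307 and 1562 against 1466, 1671 and 2216 (log2 fold change 0.33, SE 0.19, limma adjusted p = 0.58). Slc17a1 (NPT1) and Slc17a3 (NPT4), once described as phosphate carriers and now known for urate and organic anions, had log2 fold changes of 0.41 and 0.026 (limma adjusted p = 0.6 and 0.983). Both were lowest in wild-type library 2, at 3512 and 2776, and between 4038 and 7593 in labelled knockout. Slc17a5, the lysosomal sialic acid exporter, ranged from 966 to 1352 over the 6 libraries (-0.12), and Slc17a4 (-0.037) and Slc17a9 (-0.017), a nucleotide carrier of vesicles, overlapped as well. Slc17a2 (1.07) and the vesicular glutamate carrier Slc17a8 (-1.10) had at most 13 reads in a library. Of the 7 tested SLC17 genes, 3 were higher and 4 lower, and of the 5 SLC20 and SLC34 genes, 4 were higher.

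**Figure D3:**
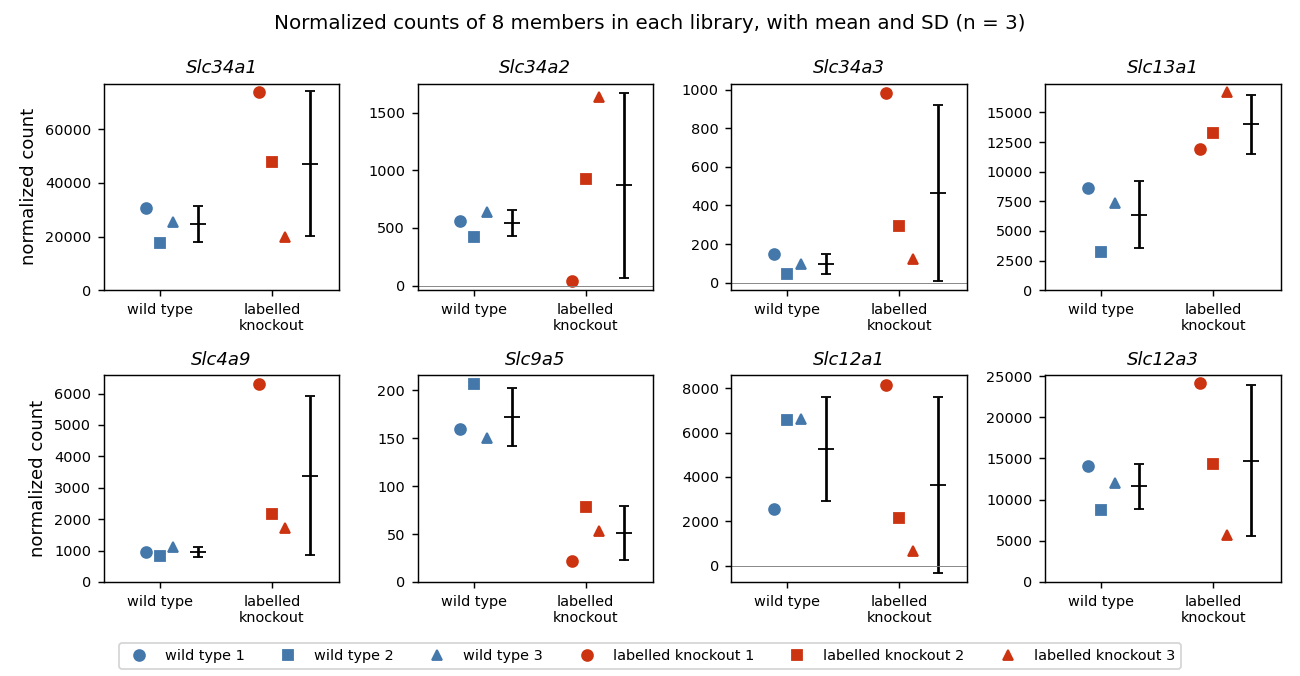
Normalized counts (y axes, linear) of 8 members in each library, with mean and SD beside each group (n = 3). Slc13a1 and Slc4a9 lie above wild type and Slc9a5 below it in all 3 labelled-knockout libraries, while Slc34a2, Slc12a1 and Slc12a3 lie on both sides.

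Among the SLC13 carriers, Slc13a1, the brush border sodium-sulfate carrier (NaS1), separated the groups. Normalized counts were 8577, 3183 and 7382 in wild type and 11931, 13274 and 16747 in labelled knockout (chromosome 6 from 24088283 to 24168092). All 3 labelled-knockout libraries were above all wild-type ones, and library 3, low for many tubule carriers, was the highest. Means were 6381 ± 2833 and 13984 ± 2485 (SD, n = 3), a 2.19-fold difference, or 1.24 on the log2 scale (SE 0.36, 95% interval 0.42 to 2.06, limma adjusted p = 0.391, DESeq2 adjusted p = 0.0707). It was 0.80 without wild-type library 2 and 1.10 to 1.51 when any other library was left out. The other renal members overlapped between groups. Slc13a3 (NaDC3), which takes up dicarboxylates from the blood side, stood at 13167, 7781 and 11656 against 9260.2, 13383 and 6285 (-0.21, SE 0.30, limma adjusted p = 0.839). Slc13a2 (NaDC1), which recovers citrate from the urine, stood at 751, 410 and 1015 against 647, 626 and 413 (-0.30, SE 0.34, limma adjusted p = 0.782). The antisense gene Slc13a2os covers 26.2% of its exon bases and had 55.5 to 63.7 normalized counts in wild type and 17.8 to 31.0 in labelled knockout. Per kilobase, Slc13a1 was 0.44, 0.28 and 0.43 times the level of Slc13a3 in wild type. In labelled knockout it was 0.87, 0.67 and 1.80 times, without overlap. Since Slc13a1 alone did not overlap either, this ratio is no separate result. Slc13a5, a citrate carrier of liver, had 1 to 17 reads (1.04), and Slc13a4, a sulfate carrier of placenta, overlapped (0.43).

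Of the 9 SLC9 sodium-proton exchangers, 5 had higher and 4 lower values, and 5 did not overlap between groups, 2 above wild type and 3 below (17.7% of all genes do not overlap, 8.27% above and 9.43% below). Slc9a3 (NHE3), the exchanger that carries most proximal sodium and acid transport, stood at 1425, 1218 and 1397 in wild type and 1333, 1799 and 1645 in labelled knockout. The groups overlapped, with a log2 fold change of 0.23 (SE 0.17, 95% interval -0.15 to 0.62, limma adjusted p = 0.654). Slc9a8 (NHE8), the other brush border exchanger, had the smallest standard error of all members. It stood at 1064, 1019 and 927 in wild type and at 1279, 1501 and 1428 in labelled knockout, all above wild type (0.48, SE 0.15, limma adjusted p = 0.391). Leaving out any library kept it between 0.43 and 0.55.

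Slc9a5 (NHE5), an exchanger better known from brain, had the smallest p of all members. It stood at 160, 206 and 150 in wild type and at 22.3, 78.4 and 53.5 in labelled knockout (chromosome 8 from 105348843 to 105369881). The highest labelled-knockout library was well below the lowest wild-type one. Means were 172 ± 30.1 and 51.4 ± 28.1 (SD, n = 3), a 3.35-fold difference, or -1.88 on the log2 scale (SE 0.45, 95% interval -2.92 to -0.85, limma adjusted p = 0.377, DESeq2 adjusted p = 0.0125). With 1 library left out, limma gave -2.27 to -1.38. The DESeq2 call was lost without wild-type library 1 or 2 (adjusted p = 0.112 and 0.397) and without labelled-knockout library 3 (0.0501). Neuron markers were near the floor in every library (18.9 to 62.9 normalized counts summed over 5 genes) and lowest in labelled-knockout library 1, and their part in this value was not tested.

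Slc9a2 (NHE2), found on the urine side of thick limb and distal tubule cells, stood at 661, 737 and 937 against 525, 578 and 464, all below wild type (-0.57, SE 0.19, limma adjusted p = 0.421). Slc9a9, an endosomal exchanger, stood at 27.6, 47.2 and 25.0 against 23.4, 14.5 and 13.4, also below (-0.91, SE 0.45). Slc9a7, of the trans-Golgi network, stood at 12.5, 13.9 and 15.9 against 29.0, 25.2 and 17.5, above (0.70, SE 0.43). Limma adjusted p of these last genes was 0.541 and 0.601. The gastric and renal Slc9a4 (-0.24) overlapped, and Gm37435 covers 16.7% of the exon bases of Slc9a4.

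The scaffolds Slc9a3r1 and Slc9a3r2 bind the tails of Slc34a1 and Slc9a3 through PDZ domains. Slc9a3r1 (NHERF1) stood at 7036, 5039.7 and 6863 in wild type and 6766, 8858 and 8651 in labelled knockout (0.36, SE 0.20, limma adjusted p = 0.565). Slc9a3r2 (NHERF2) stood at 1450.2, 1848 and 1172 against 986, 1062 and 485, all below wild type (-0.88, SE 0.31, limma adjusted p = 0.435), and at -0.52 without labelled-knockout library 3. NHERF2 is also known from blood vessels. Of 5 endothelial markers, 4 were lower and 1, Cdh5 (0.018), was not (median -0.81). The groups did not overlap for 2 of the 5, both below wild type (9.43% of all genes). Summed counts of the 5 were 6695 to 11713 in wild type and 2902 to 6785 in labelled knockout. Fibroblast and smooth muscle markers (Col1a1, Col3a1, Pdgfrb, Acta2 and Tagln) were lower still, with a median of -1.97. All 5 lay below wild type without overlap (9.43% of all genes), summing to 11861 to 25525 in wild type and 3311 to 9494 in labelled knockout. Limma called none of the 5 and DESeq2 called 4 lower (1.3% of all genes). The part of either list in the lower genes described here was not tested. The ratio of Slc9a3r1 to Slc9a3r2 per kilobase was 5.69, 3.20 and 6.87 in wild type and 8.05, 9.78 and 20.9 in labelled knockout, without overlap. As Slc9a3r2 alone did not overlap, this ratio is no separate result. Slc4a1ap was almost level, at 292 to 390 over the 6 libraries (0.073).

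The SLC4 bicarbonate carriers held the member with the smallest DESeq2 adjusted p. Slc4a9 (AE4), a basolateral carrier of type B intercalated cells, stood at 940.3, 819 and 1125 in wild type and at 6302, 2157 and 1706 in labelled knockout. Each labelled-knockout library was above all wild-type ones, library 1 by far. Means were 961 ± 154 and 3388 ± 2533 (SD, n = 3), a 3.52-fold difference, or 1.58 on the log2 scale (SE 0.46, 95% interval 0.49 to 2.67, limma adjusted p = 0.391, DESeq2 adjusted p = 0.00891). It was 1.01 without labelled-knockout library 1, where DESeq2 still called it (adjusted p = 0.000841). DESeq2 did not call it without wild-type library 1 or 2 (adjusted p = 0.10 and 0.263). Fat cell markers were highest in library 1 as well and lowest of all libraries in library 3, and their part in the Slc4a9 values was not tested.

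Slc4a4 (NBCe1), which returns bicarbonate to blood from the proximal tubule, stood at 8682, 6641 and 9795 in wild type and 17398, 6577 and 7614 in labelled knockout. Only library 1 was outside the wild-type range by much, and the log2 fold change of 0.21 (standard error 0.36, limma adjusted p = 0.865) turned to -0.22 without it. Slc4a2 (AE2), the housekeeping anion exchanger, was steady at 1147 to 1342 and 1131 to 1534 (0.098, SE 0.17), although Fastk on the opposite strand covers 13.7% of its exon bases. Slc4a11, a proton carrier best known from the cornea, was at 189 to 241 in wild type and 184, 415 and 421 in labelled knockout (0.55, limma adjusted p = 0.601). The electroneutral carriers Slc4a7 (NBCn1, -0.27) and Slc4a8 (NDCBE, -0.29) overlapped between groups, as did the anion exchanger Slc4a3 (0.043). Slc4a5 (-0.20) and the neuronal Slc4a10 (0.26) had at most 20 reads. Of the 9 SLC4 genes, 6 were higher and 3 lower, with a median of 0.098.

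The SLC12 cation-chloride carriers of the thick limb and distal tubule followed the libraries rather than the groups. Slc12a1 (NKCC2), the target of loop diuretics, stood at 2541, 6569 and 6622 in wild type and 8146, 2151 and 660 in labelled knockout, a 12.3-fold range among the latter. Library 1 was the highest of all 6 and library 3 the lowest. The difference was -1.09 on the log2 scale (SE 0.92, 95% interval -3.30 to 1.13, limma adjusted p = 0.716), which became -2.01 if labelled-knockout library 1 was left out and -0.20 if library 3 was. Slc12a3 (NCC), the target of thiazides, stood at 14127, 8763 and 11965 against 24142, 14312 and 5753, in the same order (0.14, SE 0.49, limma adjusted p = 0.943), with -0.33 without library 1 and 0.71 without library 3. The 2 carriers did not keep a constant ratio. Slc12a3 was 2.88, 0.69 and 0.94 times Slc12a1 per kilobase in wild type and 1.54, 3.45 and 4.52 times in labelled knockout, with wild-type library 1 inside the labelled-knockout range.

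The remaining SLC12 genes are mostly potassium-chloride carriers and a housekeeping form of Slc12a1. Slc12a7 (KCC4) stood at 2676, 1912 and 2705 against 2875, 3124 and 3029, above wild type (0.32, SE 0.18, limma adjusted p = 0.567). Slc12a2 (NKCC1, 0.28), Slc12a4 (KCC1, 0.16) and Slc12a9 (0.26) had overlapping groups, as did the low Slc12a5 (-0.49), the neuronal chloride exporter, and Slc12a8 (-0.44).

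Among the SLC26 anion exchangers, Slc26a4 (pendrin), the urine-side chloride-bicarbonate exchanger of type B intercalated cells, stood at 726, 614 and 1138 in wild type and 2619, 918 and 434 in labelled knockout. As with Slc12a1, library 1 was the highest and library 3 the lowest of all 6 (0.35, SE 0.62, limma adjusted p = 0.872), with -0.34 without library 1. Slc4a9 is made by the same cells. The level of Slc26a4 per kilobase was 0.73, 0.71 and 0.95 times that of Slc4a9 in wild type. In labelled knockout it was 0.39, 0.40 and 0.24 times, without overlap. Slc4a9 alone did not overlap between groups either, so this ratio is no separate result. Slc26a1 (SAT1), which passes sulfate from the proximal cell to blood, stood at 1499.5, 1107 and 1237 against 1525, 1551 and 1696, all above wild type by a small margin (0.32, SE 0.16, limma adjusted p = 0.549). Its direction is that of Slc13a1, the sulfate carrier on the urine side. Slc26a7, an exchanger of type A intercalated cells, was low and below wild type in each labelled-knockout library, at 26.7, 22.2 and 19.3 against 14.5, 11.6 and 10.3 (-0.86, SE 0.43, limma adjusted p = 0.541). Slc26a6 (CFEX), which exchanges chloride for oxalate or formate at the brush border, overlapped between groups (-0.21), and so did the sulfate carrier Slc26a2 (-0.083), Slc26a11 (0.42) and Slc26a10 (0.64), of whose exon bases 17.8% lie in B4galnt1. Slc26a8 (0.088) and Slc26a9 (-0.63) had at most 13 reads. Of the SLC8 sodium-calcium exchangers, Slc8a1 (NCX1), the basolateral exit of calcium in the distal tubule, stood at 136, 78.6 and 97.8 against 389, 112 and 56.6 (0.41, SE 0.64, limma adjusted p = 0.85, and -0.34 without library 1). Slc8a2 had at most 10 reads.

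Grouped by their main nephron site, the carriers split the labelled-knockout libraries differently. Over the 13 proximal genes the median log2 difference from the wild-type mean was 0.12, 0.29 and 0.29 in labelled knockout. It was 0.24, -0.45 and 0.17 in wild type, where library 2 had 0 of the 13 above that mean. By fold change 10 of 13 were higher (median 0.32), against a baseline that includes this low library. The groups did not overlap for 2 of the 13, where 17.7% of all genes do not. Over the 5 thick limb and distal genes the median difference was 0.76, -0.41 and -0.83, against -0.22 to 0.13 in wild type. All 5 were lowest among labelled knockout in library 3. Over the 4 intercalated cell genes the median difference was 0.62, 0.14 and -0.68, and again all 4 were lowest in library 3. Of all 58 members, 48.3% had their lowest labelled-knockout value in library 3, against 30.7% of all genes. In whole tissue, fewer cells of a type and less RNA in each cell cannot be told apart.

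Segment markers outside the set followed the carriers of their segment in some libraries and not in others. Medians of the 12 proximal markers were 0.35, -0.48 and 0.11 in wild type, where library 2 had 0 of the 12 above the wild-type mean. Under the knockout label they were 1.25, 0.60 and 0.089, which the proximal carriers did not follow in library 1. The 6 thick limb markers stood at -0.29, 0.016 and -0.85, with 3 of the 6 above the wild-type mean in library 1. The 5 distal convoluted tubule markers stood at 2.25, 0.023 and -1.11 and the 6 intercalated markers at 0.22, 0.13 and -1.10. Injured tubule markers ran the other way, at -2.03, -0.96 and 0.74. Fat cell markers stood at 7.90, 3.605 and -2.23. How far these markers account for the carriers was not tested.

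**Figure D4:**
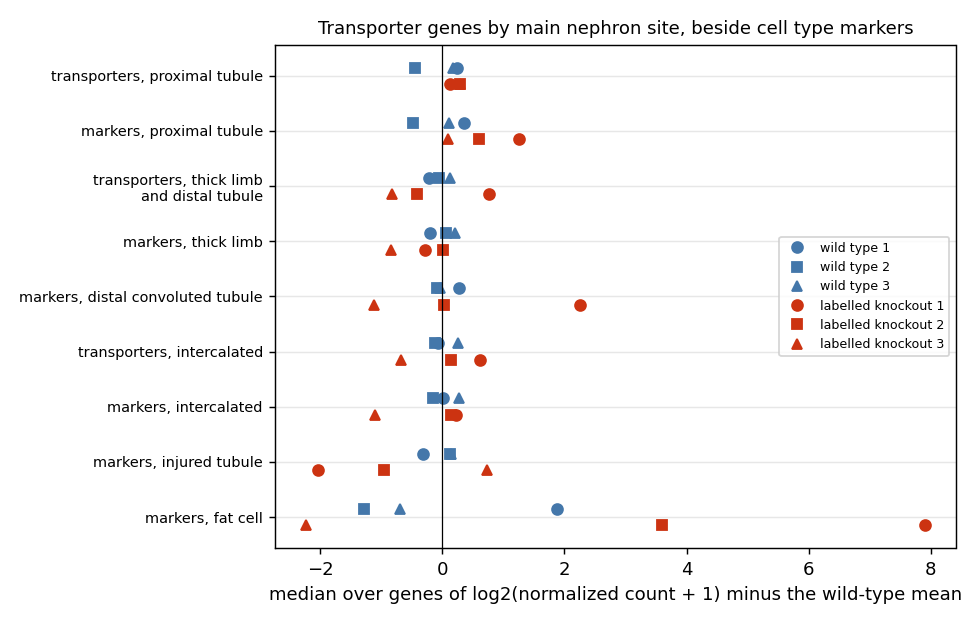
Median over the genes of each list of log2(normalized count + 1) minus the wild-type mean (x axis), by library, for carriers grouped by main nephron site and for marker genes. The thick limb and distal carriers of labelled-knockout libraries 1 to 3 sit at 0.76, -0.41 and -0.83, while the injured tubule markers sit at -2.03, -0.96 and 0.74.

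Regulators and partners of the carriers were examined as well, from 4 lists. None passed limma's test. Of 10 genes of phosphate regulation, 7 were higher, with a median of 0.13. Cyp27b1, which makes active vitamin D, stood at 715, 675 and 631 in wild type and 296, 31.9 and 139 in labelled knockout, all below wild type. On the log2 scale this was -2.60 (SE 0.73, limma adjusted p = 0.391), DESeq2 called it lower (adjusted p = 0.0196), and it was -1.72 without labelled-knockout library 2. Fgfr1, a receptor for the phosphate hormone FGF23, stood at 1162, 1395 and 1612 against 2468, 1763 and 1761, all above wild type (0.52, SE 0.20, limma adjusted p = 0.452). Its co-receptor gene Kl stood at 3608, 2357 and 3398 against 10983, 4719 and 2991, with the labelled-knockout libraries in the order of Slc34a1 (0.81, SE 0.45, limma adjusted p = 0.578). The phosphate exporter Xpr1 had a value of 0.30 and the parathyroid hormone receptor gene Pth1r one of 0.31.

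The WNK-SPAK kinase cascade switches Slc12a1 and Slc12a3 on by phosphorylation. Of 12 genes of its kinases and regulators, 8 were higher with a median of 0.14. Since the list is not of activating kinases alone, this count is no measure of the cascade's activity. Wnk2 (0.98), the ubiquitin ligase gene Nedd4l (0.52) and the kinase gene Stk39, SPAK itself (-0.32), had the smallest p, and in all 3 the groups overlapped. Of the 9 genes of the basolateral pump and channels, 4 were higher (median -0.034). Fxyd2, the gamma subunit of the sodium pump, stood at 31595, 31557 and 32273 in wild type and at 25053, 23604 and 21451 in labelled knockout, all below wild type (-0.45, SE 0.16, limma adjusted p = 0.437). Of the 7 genes of bicarbonate and proton handling, 4 were higher (median 0.040), with carbonic anhydrases Car4 (0.69) and Car15 (-0.49) and the proton pump subunit Atp6v0a4 (0.14) at the smallest p. All 7 were highest among labelled knockout in library 1, as were 40.6% of all genes. All 9 pump and channel genes were lowest among labelled knockout in library 3, as were 30.7% of all genes.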

How the data were processed

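RNA-seq of mouse kidney was compared between 3 libraries of each label. The authors deposited 1 signal value per gene and library, with the genome build mm10 per the submitters' processing notes. For the aligner, counter, use of strand, library kit and annotation release, the sources used here give none. Each deposited signal proved to be a whole number of reads divided by 1 size factor per library (100% of values within 0.001 reads), so reads were recovered for count tests. Recovered reads per library ran from 15518083 to 20356601, which bounds the precision of low genes, and intervals cover the spread between 3 libraries a group only.

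The main test was limma 3.58.1 in R 4.3.3 (trend and robust) on log2(normalized count + 1), for genes with a mean of at least 1, with Benjamini-Hochberg adjustment over all genes tested. Fold changes on that scale understate those of low genes. The pseudocount was 1, and 0.1 and 5 were tried. Other alternatives were edgeR 4.0.16, DESeq2 1.42.0, TMM scaling, no filter or a mean of at least 10, the replicate number as a block, and leaving out each library. DESeq2 with each library left out was added after seeing the data. Ratios between members were not in the plan, their pairs were picked, and no background share was computed for them. The scripts were tested on simulated data. Levels per kilobase used the gene length given with the values. For Slc8a1 this was 2934 bases, where its exons cover 18807 bases in GENCODE M21.

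Members and lists were chosen with earlier results of these data known. Named genes were members with a textbook role in the kidney, the 5 other members with the smallest p in each direction, and 3 of each partner list, with other members named for completeness. Some members, partners and motif matches are not reported here, and counts of genes include those left unnamed. Of 61 members, 58 have the same start and end in GENCODE M21 as in the files, and 14 share exon bases with another gene. A stretch of at least 100 bases at 95% identity with another gene is held by 15. Most of these hold it only with a gene whose exons they overlap. Slc12a8, Slc17a8, Slc26a2 and Slc9a3r1 hold it with genes that share no exon bases with them, where reads could be split. RefSeq promoter entries matched 46 members.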

Additional observations from a re-analysis of the deposited data

How the results depend on the processing

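No member passed at an adjusted p of 0.05 under limma or edgeR in any setting run, while DESeq2 called 3, and with 1 library left out DESeq2 called 0 to 6 (0 without wild-type library 1 or 2, 2 without wild-type library 3, 6 without labelled-knockout library 1, and 3 without library 2 or 3). Over all genes the same runs called 156, 35 and 386 without wild-type library 1, 2 or 3 and 699, 519 and 238 without labelled-knockout library 1, 2 or 3. Of all genes, 1 passed limma's test. The count was 316 with DESeq2, 4 with TMM scaling, 5 with a pseudocount of 5, 5 with no filter on low values, and 1 to 6 with 1 library left out, namely 6 if labelled-knockout library 1 was left out and 3 if library 3 was. With the replicate block, 16 genes and 0 members passed. The numbers were not taken to pair the libraries: deviations of same-numbered libraries correlated at 0.067, -0.15 and 0.12 over 12841 genes, and not every library correlated best with its own number. The members' median log2 fold change ran from 0.014 (without labelled-knockout library 1) to 0.21 (without wild-type library 3) with 1 library left out.

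Some fold changes turned in sign, and the cause was not tested. Slc34a2 was 0.69 with edgeR and 0.68 with DESeq2, and Slc17a3 was -0.052 with both. Slc8a2 was 0.029 with DESeq2. With 1 library left out, the range was -1.41 to 1.21 for Slc34a2, -0.34 to 0.24 for Slc17a3, -0.012 to 0.21 for Slc4a2, -0.22 to 0.48 for Slc4a4, -0.80 to 0.35 for Slc4a5 and -0.48 to 0.069 for Slc13a3. It was -0.34 to 0.96 for Slc26a4, -0.33 to 0.71 for Slc12a3, -0.037 to 0.28 for Slc12a4, -0.34 to 1.03 for Slc8a1, -0.0021 to 1.14 for Slc26a10 and -0.83 to 0.092 for Slc12a8. For Slc4a1ap it was -0.050 to 0.16, for Slc8a2 -1.22 to 0.52 and for Atp6v0a4 -0.081 to 0.27. Depth limits the 8 tested members with a mean under 10.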

Other observations

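The other protein-coding Slc genes were counted in the same way. Of 262 tested, 149 were higher in labelled knockout (median log2 fold change 0.089), 24 were higher and 12 lower at an unadjusted p under 0.05 (3.94% and 6.14% of all genes). The 24 make a larger share of the 262 than of all genes, and the 12 a smaller one, which was not tested. The groups did not overlap for 43, or 16.4%, near the 17.7% of all genes. Slc4a1, left out of the set by name, stood at 196, 105 and 206 normalized counts in wild type and 251, 170 and 18.5 in labelled knockout.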
